A study of Homo sapiens with 24 samples.

Results

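Chromatin accessibility was examined at 10 genes of the BCL2 family, which decide whether a cell under stress keeps or permeabilizes its mitochondria: the survival genes BCL2, BCL2L1 and MCL1, the BH3-only death genes BCL2L11, BIK, BBC3, PMAIP1 and BMF, and the effectors BAX and BAK1. A peak was assigned to a gene when its midpoint lay within 50 kb of the hg38 interval of that gene, and 179 of the 189403 peaks met this rule. The assay was ATAC-seq, in which the transposase Tn5 cuts accessible DNA and tags the cut ends for sequencing. T47D is a luminal cell line that was set up from a human breast carcinoma and carries the estrogen receptor.

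There were 6 groups of 4 libraries. In complete medium, cells seeded at 500000 per sample were held for 1 day and then received 100 nM fulvestrant, 100 nM raloxifene, 100 nM tamoxifen or vehicle (0.1% DMSO) for 1 h. In starved medium, which lacked phenol red and held 10% charcoal-stripped serum, cells seeded at 330000 were held for 3 days and then received 1 nM estradiol or vehicle for 1 h. Serum was 10% in both media, but its kind, phenol red, days of culture and seeding all differ between them. Their parts in any media difference thus cannot be told apart. Only DNA accessibility was measured, so no level of RNA or protein of these genes is given.

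BCL2, BCL-XL (from BCL2L1) and MCL1 bind and hold back their pro-death relatives. BH3-only proteins occupy the groove of the survival proteins or engage the effectors directly, and BAX and BAK then form oligomers in the outer mitochondrial membrane that release cytochrome c. In receptor-positive breast cancer cells BCL2 is known as an estrogen-induced gene, BIK as a gene that rises on estrogen withdrawal or fulvestrant in MCF-7 cells, and BCL2L11, BBC3 and PMAIP1 as genes that stress pathways switch on.

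In complete medium, vehicle replicates 3 and 4 carry a treatment label that names fulvestrant, while their titles and descriptions name DMSO. They were grouped by title, and media results were also computed without them. Fulvestrant replicate 4 held 434598 counts and had 36.1% of all peaks at 0, and starved vehicle replicate 3 held 2422981. The other 22 libraries held 5448411 to 12140005 counts. Values are CPM, the counts of a peak scaled by the TMM-adjusted total of its library in peaks. The TMM factor was 1.56 in fulvestrant replicate 4 and 0.957 to 1.05 in the other libraries. A factor above 1 lowers every CPM of its library. Peaks in or within 1 kb of 6 luminal markers summed to 870 to 1045 CPM in the 6 groups, and ESR1, which encodes the estrogen receptor, had 68 of these peaks. Basal and mesenchymal markers summed to 168 to 189 CPM, with no peak at KRT5 or KRT14, while TP63 had 33. All 5 blood markers had a peak.

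Of the 10 genes, 8 have start sites in the RefSeq promoter table (GRCh38.p14), and MCL1 and BIK are named only. The 250 bases upstream of a start are shown for the 6 starts of 5 genes whose window an accessible peak overlapped, since these are the accessible elements that belong to a member most directly. Each is printed 5′ to 3′ on the strand of the gene, and capitals mark the bases inside the start-site peak.
BCL2L11, chr2:111120664-111120913, plus strand: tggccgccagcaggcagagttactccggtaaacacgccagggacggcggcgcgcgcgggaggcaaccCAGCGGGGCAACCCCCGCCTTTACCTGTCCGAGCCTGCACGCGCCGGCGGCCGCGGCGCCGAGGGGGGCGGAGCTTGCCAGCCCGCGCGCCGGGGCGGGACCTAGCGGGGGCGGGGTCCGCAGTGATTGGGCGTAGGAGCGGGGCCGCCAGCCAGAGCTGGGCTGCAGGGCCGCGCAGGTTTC
PMAIP1, chr18:59899746-59899995, plus strand: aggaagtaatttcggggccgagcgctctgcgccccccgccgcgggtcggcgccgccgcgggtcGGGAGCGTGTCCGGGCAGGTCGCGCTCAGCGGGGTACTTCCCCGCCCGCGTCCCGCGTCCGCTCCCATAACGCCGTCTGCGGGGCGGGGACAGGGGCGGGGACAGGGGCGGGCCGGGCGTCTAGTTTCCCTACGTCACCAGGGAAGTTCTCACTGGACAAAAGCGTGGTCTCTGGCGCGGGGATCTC
BMF, inner start, chr15:40106967-40107216, minus strand: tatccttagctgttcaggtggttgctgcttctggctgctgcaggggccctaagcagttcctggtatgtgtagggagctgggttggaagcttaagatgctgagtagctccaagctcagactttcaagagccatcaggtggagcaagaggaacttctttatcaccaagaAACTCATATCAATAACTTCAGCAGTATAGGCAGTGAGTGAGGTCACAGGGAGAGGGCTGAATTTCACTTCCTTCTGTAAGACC
BMF, outer start, chr15:40108880-40109129, minus strand: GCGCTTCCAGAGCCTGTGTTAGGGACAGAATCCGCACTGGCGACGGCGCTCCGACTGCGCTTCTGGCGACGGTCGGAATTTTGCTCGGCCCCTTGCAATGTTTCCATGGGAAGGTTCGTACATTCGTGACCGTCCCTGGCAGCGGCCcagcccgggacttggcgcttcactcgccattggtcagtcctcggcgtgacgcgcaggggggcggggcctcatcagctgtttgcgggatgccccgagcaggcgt
BAX, chr19:48954625-48954874, plus strand: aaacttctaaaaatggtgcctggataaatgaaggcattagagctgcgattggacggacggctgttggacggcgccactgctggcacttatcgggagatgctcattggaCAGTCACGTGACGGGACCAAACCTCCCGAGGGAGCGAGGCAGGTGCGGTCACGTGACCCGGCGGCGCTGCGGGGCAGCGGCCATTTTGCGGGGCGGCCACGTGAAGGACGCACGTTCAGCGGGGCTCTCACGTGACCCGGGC
BAK1, chr6:33580277-33580526, minus strand: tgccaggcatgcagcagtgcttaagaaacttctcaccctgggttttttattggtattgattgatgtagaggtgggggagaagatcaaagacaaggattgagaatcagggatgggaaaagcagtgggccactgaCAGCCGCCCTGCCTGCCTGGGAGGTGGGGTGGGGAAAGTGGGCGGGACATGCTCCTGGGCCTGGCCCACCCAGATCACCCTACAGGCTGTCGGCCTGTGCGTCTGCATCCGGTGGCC

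The peaks covered 183 of these bases at BCL2L11, 187 at PMAIP1, 83 and 147 at the inner and outer BMF starts, 142 at BAX and 117 at BAK1. GC content was 76.8% at BCL2L11 and 72.8% at PMAIP1, against a median of 58.0% over 35116 promoter windows of the same length. BCL2L11 held 34 CpG dinucleotides, PMAIP1 held 36 and the inner BMF start held 0, with a median of 11 over all windows. Motifs were searched on both strands in all 10 windows of the 8 genes. The palindromic estrogen response element GGTCANNNTGACC was in 0 of the 10, and in 0.0399% of all windows. AGGTCA, a single arm of that element, stood once, 44 bases upstream of the inner BMF start and inside the peak, and was in 12.1% of all windows. The AP-1 motif TGANTCA stood once, 113 bases upstream of the BBC3 start, with 6.57% of all windows holding it. The forkhead motif TGTTTNC was found once at BCL2L11, outside the peak, and at 2 places at the outer BMF start, against 15.5% of all windows with a match. A match describes letters in the window and is not evidence of binding.

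The start-site peaks differed in height between genes. Averaged over the 24 libraries and per 100 bp of peak width, BCL2L1 had 18.5 CPM, BAK1 13.4, the outer BMF start 12.8, BCL2L11 and PMAIP1 10.7 each, the inner BMF start 7.81, BAX 5.43, BCL2 5.24 and BBC3 2.68. The BCL2, BCL2L1 and BBC3 peaks lay 0.4275 kb upstream of, 0.26 kb downstream of and 1.4025 kb downstream of their nearest RefSeq start, outside the windows. At all 9 of these peaks the highest group mean was 1.18 to 1.46 times the lowest. The median of this ratio over the 166 tested member peaks, many of them smaller, was 1.57. The fulvestrant group was the lowest at all 9, and its mean includes the shallow replicate 4, whose TMM factor of 1.56 lowers its CPM. The part of that library in this rank was not tested.

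**Figure D1:**
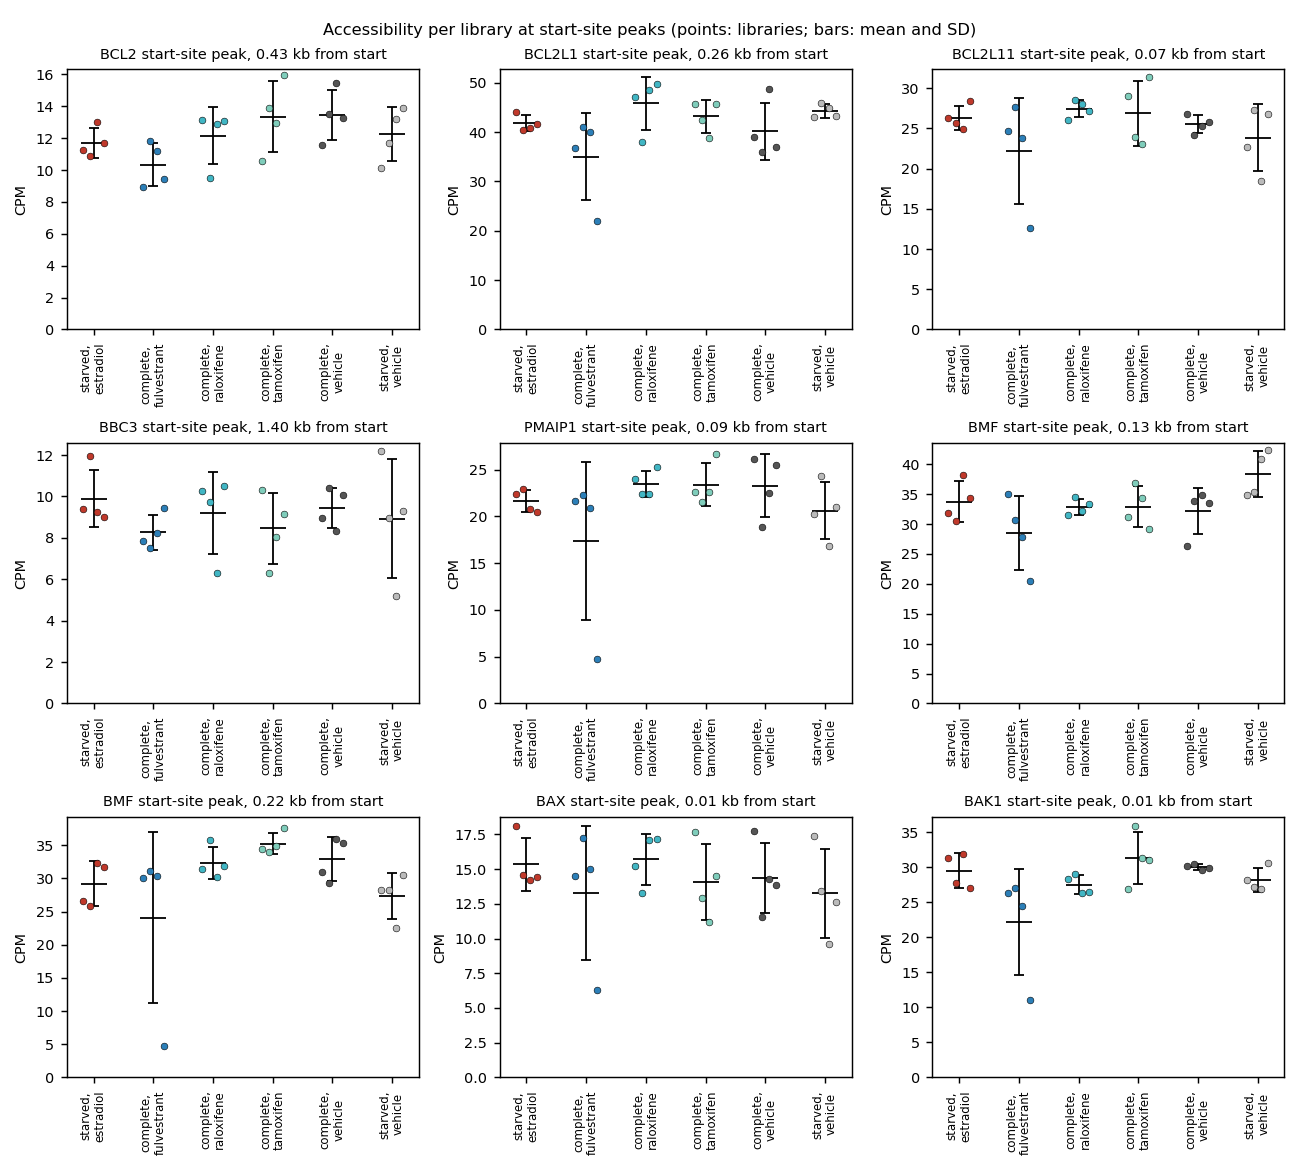
CPM of the 9 start-site peaks in each of the 24 libraries, by group (points), with bars for the mean and SD of each group. The groups differ by 1.18 to 1.46 times between the highest and lowest mean, and the shallow fulvestrant replicate 4 is the low point in several panels.

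The number of peaks per gene ran from 6 at PMAIP1 to 36 at BCL2L1, with 25 at BCL2, 22 at BMF, 20 at MCL1, 17 at BAK1, 16 at BIK, 15 at BBC3, 14 at BAX and 8 at BCL2L11. Only 57 of the 179 had their midpoint inside the interval of their gene, 36 of the others had it inside another gene, and for 80 the nearest protein-coding gene was not the member. A change in such a peak is described by position and is not assigned to the member as its target. The strongest peak of all was chr1:150629176-150629423, inside ENSA and 49.7 kb from MCL1, at 85.9 CPM. The strongest inside a member was chr20:31719406-31719661 in BCL2L1, 3.33 kb downstream of the start, at 70.5 CPM. At BCL2L11, PMAIP1, BMF and BAK1 the strongest peak was a start-site peak, at 25.4, 21.6, 33.1 and 28.2 CPM. At BCL2, BIK, BBC3 and BAX it was a distant peak nearest to or inside another gene (KDSR, TTLL1, CCDC9 and RUVBL2), at 27.9, 21.8, 19.5 and 34.0 CPM. The median over the 179 peaks was 3.90 CPM, with a range of 0.167 to 85.9.

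After the filter on low counts 166 of the 179 peaks were tested. The other 13 had 31 to 153 counts over all 24 libraries and averaged at most 0.845 CPM.

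Estradiol given to starved cells for 1 h moved none of these peaks past the threshold. Of the 166 tested peaks 0 were called by edgeR's quasi-likelihood test with Benjamini-Hochberg adjustment over all tested peaks at 0.05, against a background of 0.835% of all peaks (0.813% higher and 0.0223% lower). DESeq2 also called 0. At an unadjusted p under 0.05 there were 9 peaks, 5.42% of the members and 6.0% of all peaks. The median log2 fold change was -0.01 over the members and -0.01 over all peaks. For 129 of the 166 peaks the 95% interval of the fold change lay within 2-fold in either direction, and for 81 within 1.5-fold; at the other peaks a 2-fold change was not excluded by the interval.

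The peak closest to a call was chr20:31672605-31672867, inside BCL2L1 and 50.1 kb downstream of its start. It had 1.88, 3.73, 3.15 and 3.34 CPM with estradiol and 1.50, 1.12, 0.802 and 1.82 CPM with starved vehicle. All estradiol libraries lay above all vehicle libraries, with a log2 fold change of 1.06 (SE 0.33, adjusted p = 0.154). Over the alternatives of processing and left-out libraries its adjusted p ranged from 0.0618 to 0.803. A peak 21.3 kb from BIK, at the edge of TTLL1 (chr22:43089278-43089533), had 24.9, 25.0, 24.9 and 24.8 CPM with estradiol and 20.9, 20.5, 15.6 and 23.8 CPM with starved vehicle. These groups did not overlap either, but the log2 fold change was 0.23 (SE 0.12, adjusted p = 0.852). The lowest vehicle value is that of the shallow replicate 3.

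The smallest-p peaks of the other genes went in both directions without passing the threshold. BMF had a log2 fold change of 0.64 at chr15:40055225-40055465 (adjusted p = 0.369), where estradiol libraries had 3.75, 5.12, 7.57 and 6.56 CPM and starved vehicle libraries 3.23, 3.11, 3.21 and 4.82 CPM. BBC3 had 0.87 at chr19:47210703-47211046 (adjusted p = 0.700) and BAX had 0.33 at chr19:48978878-48979152 (adjusted p = 1). Lower values with estradiol were -0.77 at chr6:33607834-33608087 near BAK1, -0.85 at chr18:59871807-59872347 near PMAIP1 and -0.67 at chr18:63344987-63345230 near BCL2, with adjusted p of 0.396, 0.469 and 0.619. BCL2L11 had -0.69 at chr2:111176421-111176709 (adjusted p = 0.971). MCL1 had -1.77 at chr1:150610663-150610863 (adjusted p = 0.590), a peak of only 0 to 13 counts per library in both groups. At the 9 start-site peaks the log2 fold changes with estradiol were -0.17 to 0.13, and the lowest adjusted p was 0.963.

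**Figure D2:**
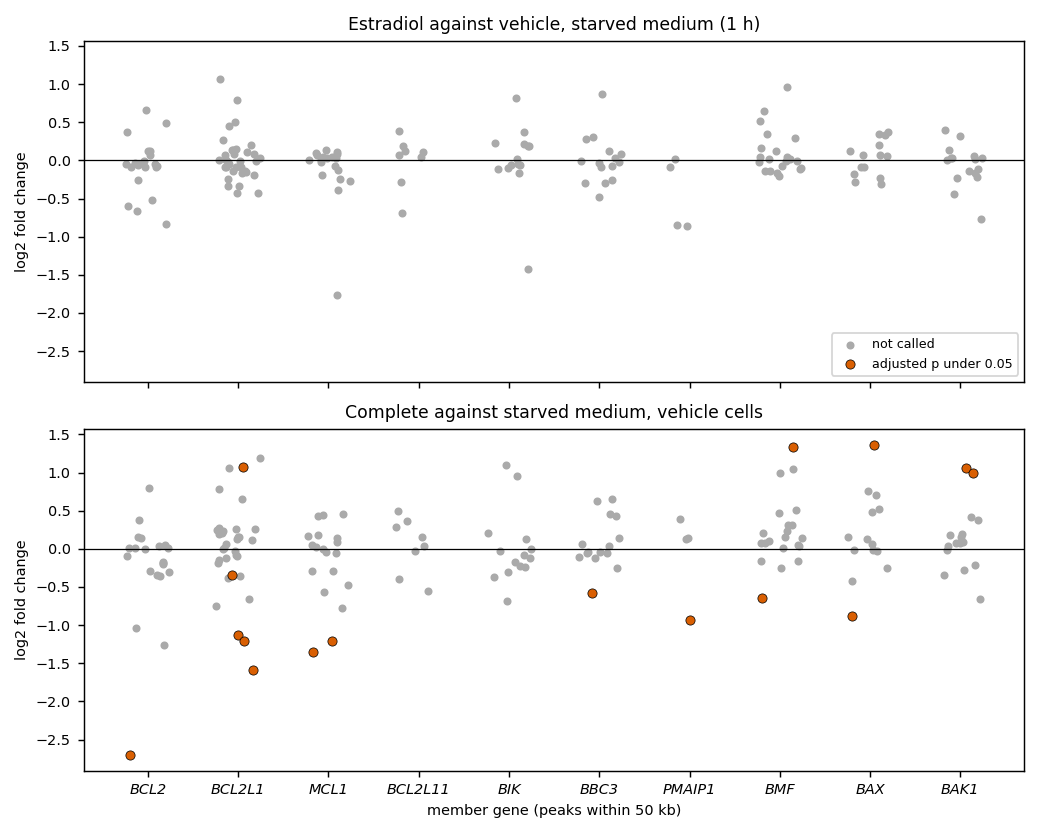
Log2 fold change of each of the 166 tested peaks by gene, for estradiol against starved vehicle (top) and for complete vehicle against starved vehicle (bottom), with called peaks in orange. No peak is orange in the top panel, and 16 are in the bottom panel, 5 above and 11 below 0.

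The culture media separated the vehicle cells at 16 of the 166 peaks: in complete vehicle 5 rose and 11 fell relative to starved vehicle. These are 3.01% higher and 6.63% lower, against 7.93% and 9.91% of all tested peaks, so the members' share of 9.64% was below the background of 17.8%. At an unadjusted p under 0.05 there were 34 members (20.5%), against 29.5% of all peaks. The median size of the log2 fold change was 0.22 over the members and 0.36 over all peaks. Among peaks above the median abundance, 9.26% of 108 member peaks were called, and 21.3% of 78373 peaks in all. By role, survival genes had 1 higher and 7 lower of 74 peaks, BH3-only genes 1 and 3 of 62, and effectors 3 and 1 of 30, with no test between roles. The summed blood marker peaks were 143 CPM in complete vehicle and 163 CPM in starved vehicle, the luminal ones 1031 and 934 CPM and the basal ones 169 and 189 CPM; the part of cell makeup in these calls was not tested.

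BCL2, which encodes the founding survival protein, had the log2 fold change of largest size among the 166 peaks. That peak, chr18:63217064-63217312, inside BCL2 and 103 kb downstream of the start, had 0.432, 0.260, 1.13 and 0.292 CPM in complete vehicle and 3.69, 4.35, 3.61 and 3.46 CPM in starved vehicle. The groups did not overlap, and the fold change was -2.70 on the log2 scale (SE 0.38, adjusted p = 4.51e-08). The peak is small: these values are 4, 2, 11 and 2 counts against 32, 35, 9 and 38 counts. It was also low in the other complete-medium groups, at means of 1.30 CPM with fulvestrant, 0.533 with raloxifene and 0.861 with tamoxifen, and in starved cells with estradiol it had 4.13, 4.48, 2.72 and 3.09 CPM. No other BCL2 peak was called between the vehicles, and the start-site peak had 13.5 ± 1.58 CPM in complete vehicle and 12.2 ± 1.69 CPM in starved vehicle (SD, n = 4 each).

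BCL2L1, the gene of BCL-XL, held 5 of the 16 called peaks, in both directions. The peak chr20:31708783-31709036, 13.96 kb downstream of the start, had 35.2, 31.7, 34.0 and 38.4 CPM in complete vehicle and 14.9, 14.3, 17.2 and 19.7 CPM in starved vehicle. It was the member with the smallest adjusted p of this comparison (log2 fold change 1.07, SE 0.14, adjusted p = 8.50e-09), without overlap of the groups. Its 3 called neighbours further into the gene went the other way.
At chr20:31699200-31699492, 23.5 kb downstream of the start, complete vehicle had 2.70, 4.42, 3.29 and 1.61 CPM and starved vehicle 8.07, 7.58, 4.41 and 6.46 CPM (log2 fold change -1.21, SE 0.25, adjusted p = 0.000158). At chr20:31685932-31686177, 36.8 kb downstream, complete vehicle had 3.24, 3.51, 3.29 and 2.92 CPM and starved vehicle 4.84, 6.84, 12.03 and 7.92 CPM (log2 fold change -1.13, SE 0.24, adjusted p = 0.000344). The groups overlap at the first of these peaks, by 4.42 against 4.41 CPM, and do not at the second. The fall at chr20:31704622-31704835 was small, with a log2 fold change of -0.34 (SE 0.11, adjusted p = 0.0273), and its groups overlap. It was not called without complete vehicle replicate 1 or 2 or starved vehicle replicate 1 or 2 (adjusted p of 0.0557 to 0.141), and within replicates 3 and 4 the log2 fold change was -0.13 (adjusted p = 0.747). The last called peak, chr20:31649829-31650057, lies 14.5 kb beyond the gene and nearer to COX4I2. It fell by 1.59 on the log2 scale (SE 0.39, adjusted p = 0.00177). Its adjusted p was 0.0544 without starved vehicle replicate 4 and 0.237 within replicates 1 and 2. Nearer to the start than all 5, the strongest peak of the gene had 73.7 ± 6.37 CPM in complete vehicle and 66.9 ± 6.92 CPM in starved vehicle (SD, n = 4 each).

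**Figure D3:**
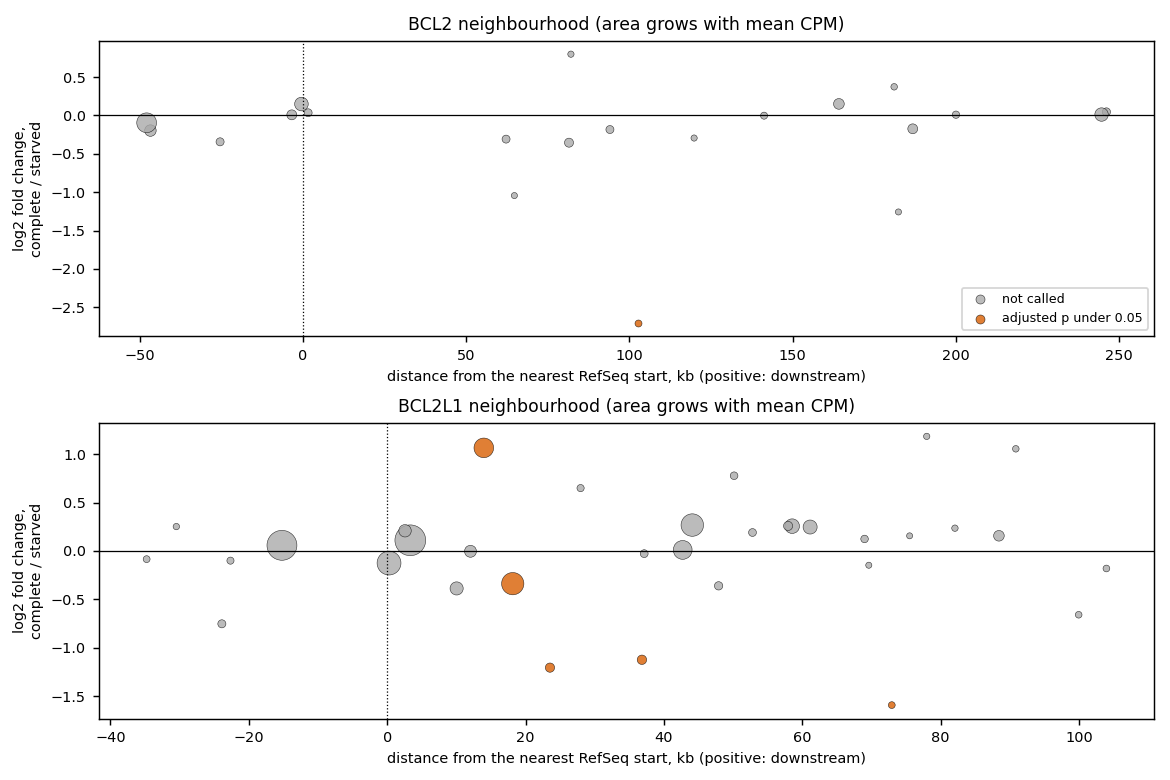
Log2 fold change of complete vehicle over starved vehicle for each tested peak of BCL2 and BCL2L1 against the distance from the nearest RefSeq start in kb, positive values lying downstream. BCL2 has a single called peak, 103 kb downstream at -2.70, while BCL2L1 has called peaks on both sides of 0 at 13.96 to 36.8 kb downstream and another, below 0, at 72.9 kb. The area of a point grows with the mean CPM of its peak.

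MCL1, a short-lived survival protein's gene, had 2 called peaks, and both lie far outside it. At chr1:150538017-150538268, 36.4 kb away and nearest to ADAMTSL4, complete vehicle had 2.49, 2.21, 2.98 and 1.61 CPM and starved vehicle 5.53, 4.97, 5.61 and 5.92 CPM. Every complete library lay below every starved one, with a log2 fold change of -1.21 (SE 0.29, adjusted p = 0.00122). At chr1:150528283-150528526, 46.2 kb away and nearest to ECM1, the log2 fold change was -1.35 (SE 0.39, adjusted p = 0.00785). That call ends without complete vehicle replicate 3 (adjusted p = 0.0744). It also ends without the vehicle libraries of conflicting label (log2 fold change -0.93, adjusted p = 0.182) and within replicates 1 and 2 (-0.82, adjusted p = 0.321). No peak inside the MCL1 interval was called.

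Among the BH3-only genes, BMF, whose protein links anoikis and cytoskeletal stress to BCL2, changed in both directions. The peak chr15:40055225-40055465, 32.5 kb beyond the gene and nearest to SRP14, had 9.95, 8.97, 8.95 and 10.4 CPM in complete vehicle and 3.23, 3.11, 3.21 and 4.82 CPM in starved vehicle (log2 fold change 1.34, SE 0.21, adjusted p = 1.05e-06). Inside BMF, chr15:40098777-40099042 had 9.84, 11.4, 11.3 and 10.1 CPM in complete vehicle and 18.3, 15.04, 18.8 and 16.1 CPM in starved vehicle (log2 fold change -0.65, SE 0.15, adjusted p = 0.000568). The groups did not overlap at either peak. At the first, the 4 starved estradiol libraries, at 3.75, 5.12, 7.57 and 6.56 CPM, overlapped starved vehicle and lay below complete vehicle.

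BBC3, the gene of the p53 target PUMA, fell at chr19:47241059-47241261, 8.3 kb upstream of the gene. Complete vehicle had 5.41, 5.98, 6.89 and 5.69 CPM and starved vehicle 8.18, 9.08, 11.2 and 9.10 CPM, without overlap (log2 fold change -0.58, SE 0.19, adjusted p = 0.0257). Near PMAIP1, the gene of NOXA, which neutralizes MCL1, chr18:59871807-59872347 had 1.51, 1.30, 1.34 and 1.61 CPM in complete vehicle and 3.69, 2.11, 1.60 and 2.73 CPM in starved vehicle. Its groups overlap, and the log2 fold change was -0.93 (SE 0.34, adjusted p = 0.0414). The BBC3 call ended in 10 of 22 alternatives and the PMAIP1 call in 12 of 21. Without complete vehicle replicate 1, 2 or 4 or starved vehicle replicate 2, 3 or 4 the adjusted p at BBC3 was 0.0506 to 0.0722. At PMAIP1 it was 0.0560 to 0.219 without any of the complete vehicle replicates or without starved vehicle replicate 1 or 4.

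BCL2L11, the gene of BIM, and BIK had no called peak between the vehicles. The smallest p at BCL2L11 was at chr2:111139622-111139959, 18.9 kb into the gene, with 12.8, 10.0, 9.98 and 8.76 CPM in complete vehicle and 9.34, 7.33, 9.62 and 7.37 CPM in starved vehicle (log2 fold change 0.37, SE 0.18, adjusted p = 0.161). At BIK it was at chr22:43143275-43143516 inside MCAT, with 8.43, 7.80, 6.59 and 7.30 CPM in complete vehicle and 7.26, 9.20, 12.4 and 11.6 CPM in starved vehicle (log2 fold change -0.38, SE 0.18, adjusted p = 0.156). Both pairs of groups overlap. The BIK peak was called within replicates 3 and 4 (log2 fold change -0.79, adjusted p = 0.0371), while within replicates 1 and 2 its log2 fold change was -0.0036 (adjusted p = 0.991).

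Of the effectors, BAK1, whose protein sits in the mitochondrial outer membrane, had 2 higher peaks, both upstream of the gene. At chr6:33599663-33599894, 19.5 kb upstream, complete vehicle had 13.4, 10.3, 12.7 and 13.7 CPM and starved vehicle 5.30, 5.22, 5.21 and 7.37 CPM (log2 fold change 1.06, SE 0.18, adjusted p = 3.12e-06). At chr6:33619256-33619456, 39.1 kb upstream and nearest to ITPR3, complete vehicle had 7.78, 6.11, 7.10 and 8.17 CPM and starved vehicle 2.54, 4.60, 2.41 and 4.10 CPM (log2 fold change 1.00, SE 0.22, adjusted p = 0.000355). Neither pair of groups overlaps. The BAK1 start-site peak stood at 30.1 ± 0.385 CPM in complete vehicle and 28.2 ± 1.67 CPM in starved vehicle (SD, n = 4 each).

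Near BAX, chr19:48918830-48919032, inside NUCB1 and 35.9 kb upstream, had 2.92, 2.60, 2.78 and 3.50 CPM in complete vehicle and 0.576, 1.86, 1.20 and 1.00 CPM in starved vehicle (log2 fold change 1.36, SE 0.35, adjusted p = 0.00293). The peak chr19:48978878-48979152, inside GYS1 and 17.2 kb away, had 1.30, 2.08, 2.06 and 1.46 CPM in complete vehicle and 3.23, 3.23, 2.81 and 3.28 CPM in starved vehicle (log2 fold change -0.89, SE 0.33, adjusted p = 0.0483). Neither pair overlaps. The second call ended in 17 of 21 alternatives, and without any of the 8 libraries in turn its adjusted p was 0.0527 to 0.140. BAX itself encodes a cytosolic protein that moves to mitochondria, and no peak had its midpoint inside its interval, though the start-site peak reaches into it.

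**Figure D4:**
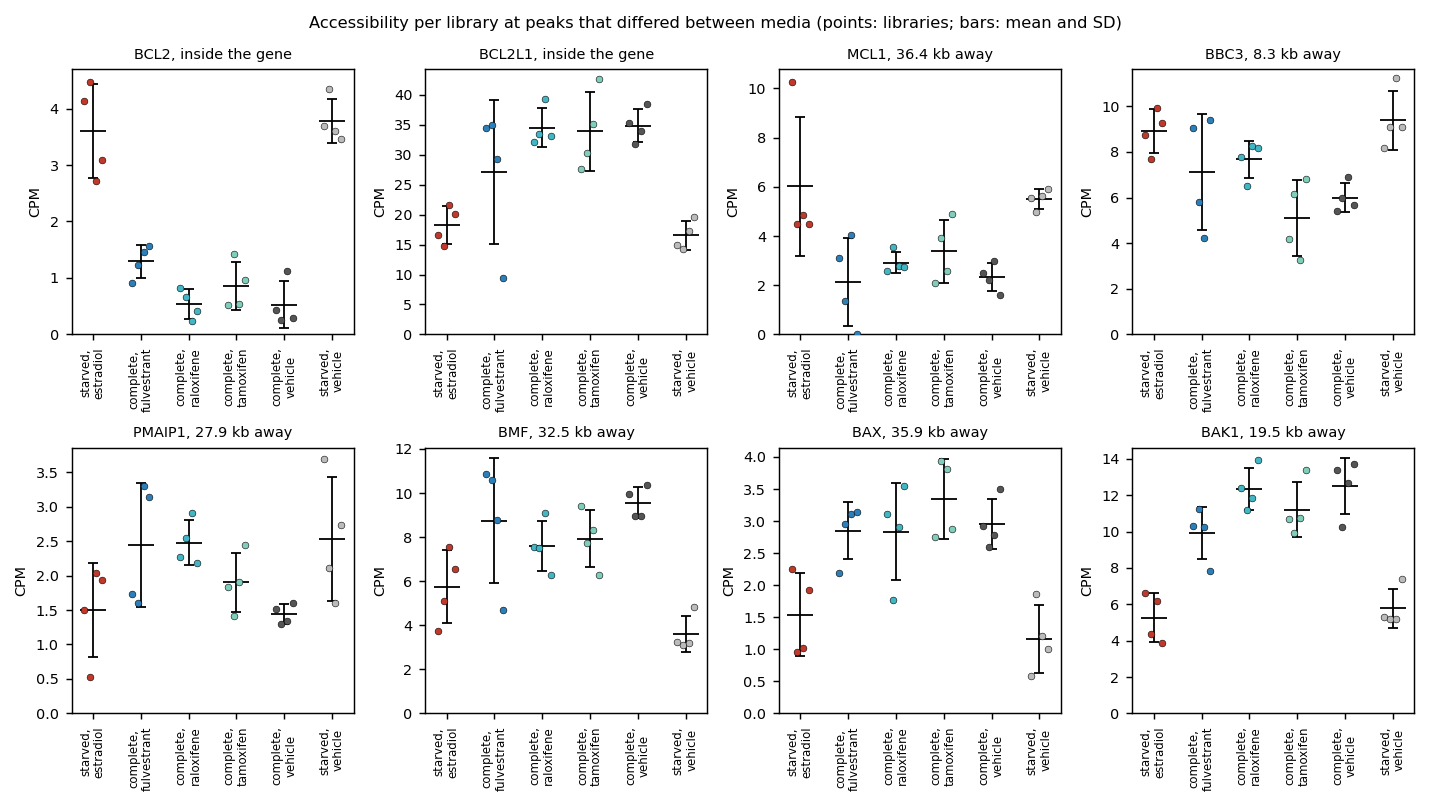
CPM in each of the 24 libraries at 8 peaks called between the vehicles, with the 6 groups side by side (points), and bars for the mean and SD of each group. Apart from the shallow fulvestrant replicate 4 at BCL2L1, the complete-medium libraries stand apart from all starved libraries at the BCL2, BCL2L1 and BAK1 peaks, as in 0.260 to 1.13 CPM in complete vehicle and 3.46 to 4.35 CPM in starved vehicle at BCL2.

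Of the 16 calls, 7 held in every alternative that tested them: both BAK1 peaks, the BCL2 peak, the BCL2L1 peaks at chr20:31708783-31709036 and chr20:31699200-31699492, the higher BMF peak and the ADAMTSL4-side MCL1 peak. Another 5 were lost in 1 to 3 alternatives and 4 in more.

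Starved cells given estradiol were also set against complete vehicle, which asks how far 1 h of hormone leaves starved cells from cells in complete medium. Of the 166 peaks, 12 were higher and 12 lower, 14.5% in all, against 9.39% higher, 7.24% lower and 16.6% in all over every tested peak. At an unadjusted p under 0.05 there were 36 members (21.7%), against 28.6% of all peaks. This comparison shares its complete vehicle libraries with the media comparison, so values are given side by side. At the BCL2 peak chr18:63217064-63217312 the log2 fold change was 2.62 (SE 0.37, adjusted p = 9.28e-08). At chr20:31708783-31709036 in BCL2L1, estradiol libraries had 16.6, 14.8, 21.7 and 20.1 CPM and complete vehicle libraries 35.2, 31.7, 34.0 and 38.4 CPM (log2 fold change -0.91, SE 0.13, adjusted p = 1.21e-07). At chr6:33599663-33599894 near BAK1 they had 6.63, 4.37, 6.21 and 3.86 CPM with estradiol and 13.4, 10.3, 12.7 and 13.7 CPM with complete vehicle (log2 fold change -1.23, SE 0.17, adjusted p = 5.95e-08). At all 3 peaks the groups did not overlap. Estradiol over starved vehicle gave log2 fold changes of -0.09, 0.15 and -0.17 at these peaks (adjusted p = 1 each). Against complete vehicle, the BCL2L1 peak chr20:31685932-31686177 was higher in the starved cells with estradiol (log2 fold change 1.21, adjusted p = 5.16e-05). Together with a peak inside TTLL12, these were the 5 calls that held in every alternative that tested them, and 10 others were lost in 1 to 3 alternatives and 9 in more.

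BCL2L11 and BIK, which had no call between the vehicles, each had a lower peak with estradiol than with complete vehicle. At chr2:111139622-111139959 inside BCL2L11, estradiol libraries had 6.88, 5.22, 7.82 and 6.56 CPM and complete vehicle libraries 12.8, 10.0, 9.98 and 8.76 CPM, without overlap (log2 fold change -0.65, SE 0.18, adjusted p = 0.00633). Starved vehicle libraries, at 9.34, 7.33, 9.62 and 7.37 CPM, overlapped both groups. The call ended without complete vehicle replicate 1 (adjusted p = 0.0748) and within replicates 3 and 4 (log2 fold change -0.34, adjusted p = 0.481). At chr22:43171669-43171869, inside TTLL12 and 42.1 kb from BIK, the counts were 2, 0, 1 and 3 with estradiol and 10, 10, 10 and 4 with complete vehicle (log2 fold change -2.53, SE 0.72, adjusted p = 0.00762). The starved vehicle libraries had 4, 0, 2 and 8 counts there. At the higher BMF peak, chr15:40055225-40055465, the log2 fold change was -0.69 (SE 0.18, adjusted p = 0.00383), and estradiol over starved vehicle gave 0.64 there (adjusted p = 0.369). The 9 start-site peaks gave log2 fold changes of -0.19 to 0.08, with a lowest adjusted p of 0.332.

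The 3 antagonists were given at a matched dose and time in complete medium. Fulvestrant is a steroid with the core of estradiol and a long side chain, while raloxifene and tamoxifen are nonsteroidal, with a benzothiophene and a triphenylethylene core. Against complete vehicle, 0 of the 166 member peaks were called with fulvestrant, raloxifene or tamoxifen, and over all tested peaks 0.0%, 0.000638% and 0.0% were. DESeq2 also called 0 members. At an unadjusted p under 0.05 there were 5 peaks with fulvestrant, 3 with raloxifene and 3 with tamoxifen, which are 3.01%, 1.81% and 1.81% of the members and 3.96%, 3.81% and 4.13% of all peaks. The 95% interval lay within 2-fold in either direction at 123, 137 and 128 of the 166 peaks.

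The smallest unadjusted p of these comparisons was at chr15:40081773-40082021, 5.99 kb beyond BMF. Raloxifene libraries had 12.001, 6.75, 5.93 and 8.87 CPM and complete vehicle libraries 5.08, 6.24, 6.28 and 4.52 CPM, with overlap (log2 fold change 0.60, SE 0.20, adjusted p = 1). At chr2:111121265-111121465, 0.451 kb into BCL2L11, tamoxifen libraries had 1.83, 0.945, 1.77 and 1.92 CPM and complete vehicle libraries 3.35, 5.07, 2.16 and 2.04 CPM, without overlap (log2 fold change -0.91, SE 0.32, adjusted p = 1). At chr18:63237543-63237814 inside BCL2, tamoxifen libraries had 0.785, 0.315, 0.682 and 0 CPM and complete vehicle libraries 0.649, 1.30, 1.54 and 1.17 CPM, with overlap (log2 fold change -1.43, SE 0.56, adjusted p = 1). None of these passed the threshold after adjustment.

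Between antagonists, 3 pairs were compared, and 0 member peaks were called in each by edgeR or DESeq2, against 0.000638% of all peaks for fulvestrant over raloxifene and 0.0% for both other pairs. At an unadjusted p under 0.05, fulvestrant over raloxifene had 18 members, 8 higher and 10 lower, which is 10.8% of the members and 5.16% of all peaks. Without raloxifene replicate 4 this number was 6. Fulvestrant over tamoxifen had 12 (7.23%, against 5.27% of all peaks) and raloxifene over tamoxifen 6 (3.61%, against 3.92%). The 95% intervals lay within 2-fold at 126, 118 and 127 of the 166 peaks. At the other peaks a 2-fold difference between antagonists was not excluded.

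Counts were also summed over all peaks within 50 kb of each gene, giving 1 value per gene and library, which was tested among 19687 protein-coding genes. Per 100 bp of peak width the sums averaged 8.36 CPM at MCL1, 4.48 at BMF, 4.46 at BCL2L1, 4.12 at BCL2L11, 3.91 at BAX, 3.23 at BBC3, 3.01 at BAK1, 2.75 at BIK and 1.70 each at BCL2 and PMAIP1. Fulvestrant replicate 4, with its TMM factor of 1.56, had the lowest sum of its group at all 10 genes, and the part of that factor was not tested. Estradiol against starved vehicle called 0 of the 10 with edgeR or DESeq2, with a background of 1.58% of genes (1.55% higher and 0.0356% lower). At an unadjusted p under 0.05 there were 0 of the 10, against 7.02% of genes. Its log2 fold changes were -0.04 to 0.06, and the 95% intervals reached from -0.22 at PMAIP1 to 0.19 at BCL2L11. The 3 antagonists against complete vehicle likewise called 0 of the 10, with a background of 0.0% each, 0 at an unadjusted p under 0.05 and intervals from -0.22 to 0.22.

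Between the vehicles 2 of the 10 sums were called, with a background of 24.5% of genes. BCL2 had 113, 102, 117 and 105 CPM in complete vehicle and 124, 120, 110 and 119 CPM in starved vehicle (log2 fold change -0.16, SE 0.05, adjusted p = 0.0212). BAK1 had 123, 122, 136 and 130 CPM in complete vehicle and 107, 114, 126 and 114 CPM in starved vehicle (log2 fold change 0.15, SE 0.05, adjusted p = 0.0392). Both pairs of groups overlap. The BCL2 call ended without complete vehicle replicate 2 or 4 or starved vehicle replicate 1 (adjusted p of 0.0574 to 0.0728). The BAK1 call ended without complete vehicle replicate 2, 3 or 4 or starved vehicle replicate 1, 2 or 4 (adjusted p of 0.0588 to 0.217), and within 10 kb its log2 fold change was -0.01. With estradiol against complete vehicle BAK1 was the 1 sum called, with a background of 22.0%: 111 ± 8.68 CPM with estradiol and 128 ± 6.41 CPM with complete vehicle (SD, n = 4 each; log2 fold change -0.18, SE 0.05, adjusted p = 0.0110). That call ended without complete vehicle replicate 3 or estradiol replicate 4 (adjusted p of 0.0553 and 0.0600).

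**Figure D5:**
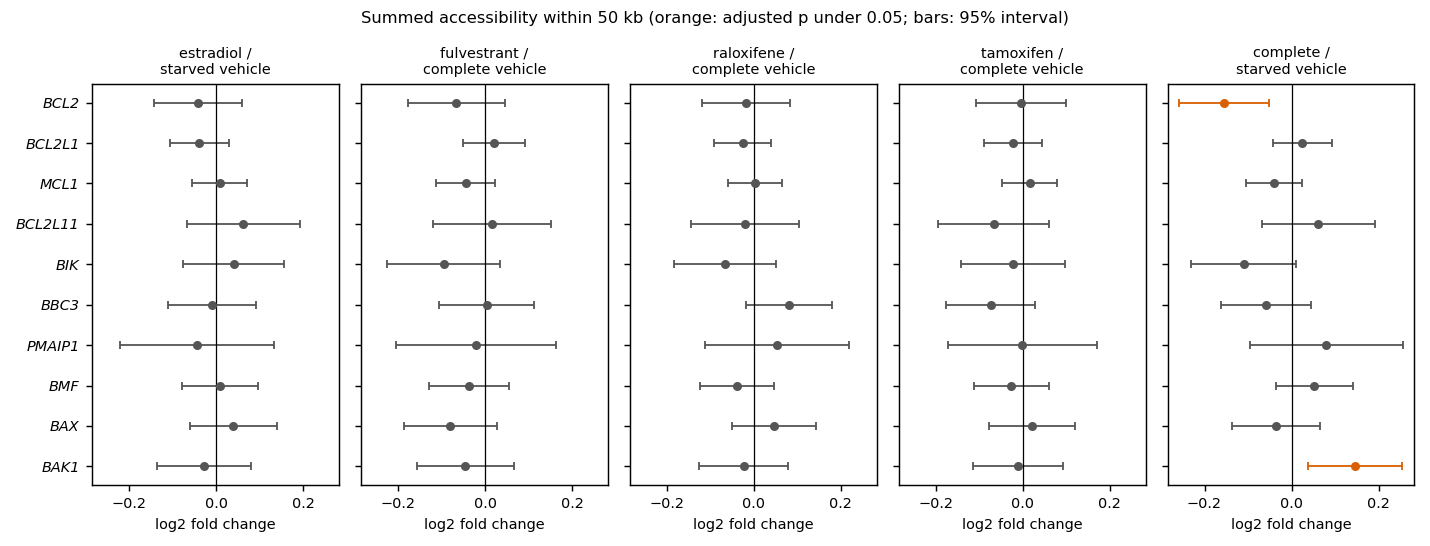
Log2 fold change of the summed counts within 50 kb of each of the 10 genes in 5 comparisons, with 95% intervals as bars. The estradiol and antagonist points run from -0.095 to 0.081, and the called points are BCL2 at -0.16 and BAK1 at 0.15 between the vehicles.

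Other genes of the pathway were counted the same way. The 11 other family genes had 136 peaks, of which 119 were tested, and the 12 genes of steps after the mitochondrion (caspases, APAF1, CYCS and inhibitor of apoptosis genes among them) had 143, of which 117 were tested. With edgeR, estradiol called 0 in both lists, against 0.835% of all peaks. At an unadjusted p under 0.05 it had 5 peaks of each list, against 6.0% of all peaks. Each antagonist called 0, against at most 0.000638% of all peaks. At that unadjusted p an antagonist had 2 to 7 peaks of a list, against 3.81% to 4.13% of all peaks. Between the vehicles, 8 were higher and 5 lower of the other family peaks (10.9%), and 9 higher and 5 lower of the later-step peaks (11.97%), with the same background of 17.8%. Inside BCL2A1, a survival gene known from blood cells, chr15:79966307-79966571 had 6.69 ± 1.71 CPM in complete vehicle and 24.9 ± 5.36 CPM in starved vehicle (SD, n = 4 each; log2 fold change -2.001, SE 0.16, adjusted p = 2.21e-16). The peak chr12:116832469-116832733, 23.5 kb from the BH3-only gene HRK, had 1.63 ± 0.554 CPM in complete vehicle and 6.68 ± 0.934 CPM in starved vehicle (log2 fold change -2.05, SE 0.27, adjusted p = 4.92e-09), while 4 other peaks of HRK were higher by 1.01 to 1.58 on the log2 scale. Near BIRC5, the gene of survivin, which is an inhibitor of apoptosis made in dividing cells, chr17:78241515-78241792 had 17.5 ± 3.67 CPM in complete vehicle and 5.54 ± 1.28 CPM in starved vehicle (log2 fold change 1.59, SE 0.21, adjusted p = 5.26e-08).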

How the data were processed

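ATAC-seq libraries of T47D cells, 24 in 6 groups of 4, were analysed from the table the authors deposited, which holds raw counts per peak in a common set of 189403 peaks 200 to 958 bp wide, without normalization. The submitters' processing notes name cutadapt 1.8.1 (a trimmer), Bowtie2 2.4.4 (an aligner), SAMtools 1.9 and the build hg38. How peaks were called, how reads were counted and whether duplicates were removed or Tn5 cuts shifted is not given in the sources used here. Whether peak starts count from 0 or 1 is also not given, so a coordinate can be off by 1 base. Separate cultures are not stated for the replicates. The spread behind each p-value is thus that of these libraries alone and may be technical.

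Gene intervals, starts and promoter windows came from RefSeq tables on GRCh38.p14 with no exon annotation, so positions are given as inside or outside the gene interval. The start-site peak of a gene overlaps or is nearest to a start. A joint edgeR 4.0.16 fit of 6 group means over all 24 libraries was used (R 4.3.3; TMM scaling, filterByExpr with minimum count 10 and minimum total 15, glmQLFit with robust estimation, two-sided quasi-likelihood F-tests, Benjamini-Hochberg over all 156745 tested peaks, threshold 0.05). Summed counts of each gene's peaks were fitted the same way. Their CPM is the sum of the peak CPM. Fold changes are log2, weigh libraries by depth and can differ from ratios of mean CPM. Alternatives were DESeq2 1.42.0, RLE, total count and loess scaling (limma 3.58.1), other filters, an older edgeR fit, only the groups compared, windows of 10 and 100 kb, splits by replicate number and left-out libraries. The script was tested on simulated data.

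The members and lists were chosen with earlier results of these data known. Named peaks are, per gene, those with the smallest p with estradiol and between the vehicles, the highest mean CPM and the start-site peaks, plus the 3 smallest p of antagonists against vehicle. The other peaks called between the vehicles or against complete vehicle, and the examples from the other pathway genes, were chosen after their values were seen. Peaks of 1 gene share their libraries and are not replicates.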

Additional observations from a re-analysis of the deposited data

Results flagged for a closer look

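The 4 libraries of a group were checked for a single value far from the other 3, over 96 groups. These were the gene sums in every group, and the peaks named for the media comparison in complete and starved vehicle only. Other named peaks and the treated groups at peaks were not checked. Chance flags about 1 group in 20, and 8 were found. Of the gene sums, fulvestrant replicate 4 was low at BIK with 72.2 CPM, against 93.0 to 95.3 CPM in the other fulvestrant libraries. That library is shallow, and its TMM factor of 1.56 lowers all its CPM. The part of depth or of that factor in its low values was not tested. It was also low at PMAIP1, with 17.3 CPM against 29.3 to 31.5 CPM, and at BAX, with 51.8 CPM against 114 to 125 CPM. Starved vehicle replicate 3, also shallow, had 111 CPM at BAX, against 129 to 130 CPM in the others of its group.

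Of the named peaks, starved vehicle replicate 3 stood out at the ECM1-side MCL1 peak with 4.41 CPM against 2.11 to 2.31 CPM. It stood out too at the BAX peak inside GYS1, with 2.81 CPM against 3.23 to 3.28 CPM. Starved vehicle replicate 4 was high at the BMF peak chr15:40055225-40055465 with 4.82 CPM against 3.11 to 3.23 CPM. The same library was high at the BAK1 peak chr6:33599663-33599894 with 7.37 CPM against 5.21 to 5.30 CPM, and at both peaks it remained below every complete vehicle library.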

How the results depend on the processing

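No member peak or gene sum was called with estradiol against starved vehicle, with any antagonist against complete vehicle or between antagonists (peaks only there) under any alternative run. Complete vehicle against starved vehicle gave 5 higher and 11 lower peaks. The replicate block gave 8 higher peaks, and so did the replicate set (1 and 2 against 3 and 4) nested in medium. Lower peaks numbered 7 within replicates 1 and 2, 7 within replicates 3 and 4 and 7 without the vehicle libraries of conflicting label. Peaks within 10 kb gave 1 higher and 6 lower, and within 100 kb 17 and 20. Leaving out a library gave 5 to 7 higher and 7 to 10 lower, the 7 without complete vehicle replicate 2. The share of all peaks moves with the setting too. At an unadjusted p under 0.05, members had 20.5% and all peaks 29.5% as reported. These shares were 21.3% and 25.2% within replicates 1 and 2, and 10.8% and 19.1% within replicates 3 and 4. Without the vehicle libraries of conflicting label they were 19.5% and 23.1%. The replicate block gave 20.5% and 30.9%, and the nested replicate set 19.9% and 28.2%. For estradiol against complete vehicle the 12 higher and 12 lower peaks became 7 and 6 within replicates 1 and 2, 3 and 2 within replicates 3 and 4, 6 and 6 within 10 kb and 21 and 24 within 100 kb. Leaving out a library gave 10 to 14 higher and 9 to 12 lower. The shares at an unadjusted p under 0.05 were 21.7% of members and 28.6% of all peaks as reported. They were 22.0% and 23.8% within replicates 1 and 2, and 15.6% and 19.4% within replicates 3 and 4.

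The 2 gene sums called between the vehicles became 1 with DESeq2, with total count scaling, within 10 kb and within either replicate set. Their number became 4 within 100 kb and 0 without the vehicle libraries of conflicting label. Within replicates 3 and 4 neither BCL2 nor BAK1 was called (adjusted p of 0.270 and 0.390), so the 1 call there was of another member. Leaving out a library gave 0 to 2, the 0 without complete vehicle replicate 2 or 4 or starved vehicle replicate 1. Over all genes, calls between the vehicles were 2278 higher and 2549 lower of 19687 as reported, and 1673 and 1957 with DESeq2. Within 10 kb they were 1463 and 1894 of 18752, and within 100 kb 2546 and 2897 of 19862. Within replicates 1 and 2 they were 2308 and 2305, and within replicates 3 and 4 they were 853 and 1200. The 1 sum called with estradiol against complete vehicle became 2 with the replicate block, total count scaling or without the shallow libraries, 3 with the nested replicate set, 4 within 100 kb and 0 within 10 kb, within either replicate set or without the vehicle libraries of conflicting label. Leaving out a library gave 0 to 2. The causes were not tested, but a window or a split changes the peaks or libraries that enter.

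Signs turned in 5 instances. The BAK1 sum between vehicles was -0.0059 within 10 kb, where both called BAK1 peaks are left out. The other instances were not called as reported: at the PMAIP1 peak chr18:59871807-59872347, estradiol over complete vehicle was -0.53 within replicates 1 and 2, -0.17 without estradiol replicate 3 and -0.01 without estradiol replicate 4 (up to 0.37 without estradiol replicate 2), and at chr20:31704622-31704835 it was 0.29 (adjusted p = 0.0535) as reported and -0.037 within replicates 3 and 4. That BCL2L1 peak was called in 13 of its 22 alternatives, all higher with estradiol, with 0.66 (adjusted p = 5.82e-06) within replicates 1 and 2. Pairing by replicate number was checked, and same-numbered libraries were slightly more alike on the median. Over 60 same-numbered pairs, the correlation of deviations from the group means was -0.128 to 0.126, and most values were above 0. Its median was 0.0526, against -0.0313 for other pairs. Deviations from a group mean sum to 0, which draws other pairs below 0 when same-numbered pairs lie above it. Fulvestrant replicate 2 and raloxifene replicate 1 had 0.158, above every same-numbered pair. Whether libraries pair by number or by replicate set was not tested. Over all gene sums, estradiol against starved vehicle called 425 higher and 43 lower with the block, and 305 and 7 without it. The reported fit holds no block, which is given only here. Depth limits small peaks most, as 36.1% of peaks are at 0 in fulvestrant replicate 4.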
